A study of Arabidopsis thaliana with 9 samples.

Results

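The Calvin cycle and photorespiration enzymes described here are 31 nuclear loci of Arabidopsis thaliana, chosen by locus identifier as known enzymes of both pathways and read from the sense rows of the count tables. They comprise 15 Calvin cycle genes with the CP12 regulators, 14 photorespiratory genes with the ammonium-refixing enzymes GLN2 and GLU1, and 2 carbonic anhydrases. All 31 had sense tags, among 21063 loci with a sense tag in the series. Leaves of the slh1 mutant, which is in the ecotype Nossen (No-0) and has a mutation in the immune receptor gene RRS1, were sampled beside leaves of wild type No-0. Plants of both genotypes were 4 weeks old, had been kept at 28 °C with 10 h of light and 14 h of dark, and were moved to 21 °C at the start of a light period. They were harvested at 0 h, labelled 28 °C, and after 6, 9 and 24 h at 21 °C. Each genotype had 1 library per time point, 8 in all, with no replicate. The number of plants behind a library is not given in the sources used here.

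The Calvin cycle fixes CO2 onto ribulose bisphosphate with Rubisco, reduces the product to triose phosphate and rebuilds the acceptor through aldolases, transketolase, bisphosphatases and phosphoribulokinase (PRK). When Rubisco takes oxygen instead, photorespiration carries the resulting phosphoglycolate through chloroplast, peroxisome and mitochondrion back to the cycle, and the ammonium set free by glycine decarboxylase is refixed in the chloroplast. Carbonic anhydrases interconvert CO2 and bicarbonate. Most of these genes are expressed chiefly in green tissue, and many follow the day.

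EXPRSS Tag-seq counts 1 tag per polyadenylated transcript near its 3′ end, so that levels of different genes can be set side by side without a correction for length. Levels are given in TPM, which here means sense tags of a gene per 1000000 sense tags of the library. The libraries held 227021 to 573997 tags, the slh1 libraries at 0 and 24 h being the smallest, and 1 sense tag was worth 1.99 to 4.98 TPM. Between 13.5% and 22.7% of sense tags came from organelle genes. Leaf markers were high in each library, with RBCS1A at 14855 to 21678 TPM and LHCB1.3 at 4534 to 13263 TPM. The root markers EXPA7 and COBL9, the seed markers CRA1 and CRC and the senescence marker SAG12 had 0 tags in all 8 libraries, which allows up to 5.96 to 15.0 TPM. The markers of guard cell, phloem, epidermis, flower and shoot meristem did not pass 68.9 TPM. In whole leaves, fewer cells of a type and less RNA per cell cannot be told apart.

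All 31 genes passed the filter on low counts, with a mean of at least 31.8 tags and no value below 13.5 tags. Their levels spanned a wide range, from GLYK at a mean of 92.7 TPM to CA1 at a mean of 4278 TPM over the 8 libraries. The ratio of the highest to the lowest library had a median of 2.67 and ran from 1.36 for FBA2 to 12.3 for GLDP1. In 16 of the 31 genes every count was whole (within 1e-06), and the others held fractions where reads were shared with another locus. PGLP1 had fractions in 6 libraries, since 973 of the 1148 distinct 36-base windows at the end of its transcripts also lie in AT5G36790, and its values are therefore uncertain. Other named genes with fractions in more than 1 library were CA1 (5 libraries), FBA2 (4), PGK1, GLDH1, GDCH3 and CA2 (3 each) and CP12-1 (2).

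Together the 31 genes were most abundant before the transfer in both genotypes. Their summed level was 42378, 28126, 29167 and 28976 TPM in slh1, against 39365, 25438, 27923 and 31659.5 TPM in No-0, at 0, 6, 9 and 24 h in each case. The sum at 24 h was 0.684 times that at 0 h in slh1 (95% binomial interval 0.661 to 0.707) and 0.804 times in No-0 (0.786 to 0.823). These intervals, like all others given, cover counting error only. The order of the genotypes in this sum depended on the scaling, since slh1 was the higher at 0, 6 and 9 h in TPM and the lower at all 4 times after TMM scaling. Calvin cycle genes summed to 20696, 16063, 16303 and 17970.1 TPM in slh1, against 19349, 15586, 17213 and 19386 TPM in No-0. Photorespiratory genes summed to 12838, 7265, 7084 and 6444 TPM in slh1, against 11988, 6292, 6659.5 and 7485 TPM in No-0, and carbonic anhydrases to 8843, 4798, 5779.9 and 4562 TPM in slh1, against 8028, 3560.1, 4050.2 and 4788 TPM in No-0. At 24 h the photorespiratory sum stood at 0.502 (0.469 to 0.536) of its 0 h value in slh1 and at 0.624 (0.598 to 0.652) in No-0, and the Calvin cycle sum stood at 0.868 (0.830 to 0.908) in slh1 and 1.00 (0.972 to 1.03) in No-0. The Calvin cycle sum rests on FBA1, GAPA1 and CP12-1, the 3 of its genes called higher at 24 h. Without them the other 12 genes stood at 0.522 of their 0 h sum in slh1 and 0.671 in No-0. This alternative was chosen after seeing the data. Leaving out only the genes called higher must lower the ratio, so that the drop is no separate result. Of the 15 Calvin cycle genes 3 were called higher and 5 lower at 24 h against 0 h, with a median log2 fold change of -0.58. Of the 14 photorespiratory genes 1 was higher and 8 lower, with a median of -0.88. Of all genes tested 10.5% were higher and 8.26% lower. Among the 2115 genes that averaged 20 tags or more, fitted alone, 20.9% were higher and 20.4% lower.

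The change with time was tested with edgeR over 7824 genes, with the genotypes standing in for replicates of a time point and 3 residual degrees of freedom. The fit shares information on spread between genes, so that its small p-values do not rest on the libraries of 1 gene alone. Leaves at 0 and 24 h were taken at the same hour of the light cycle, so that this comparison holds the hour fixed, while temperature and time since transfer cannot be told apart in it. The leaves at 6 and 9 h differ from those at 0 h in temperature, time since transfer and hour of day, which cannot be told apart either. At 24 h against 0 h, 4 of the 31 genes were higher and 14 lower at an adjusted p below 0.05, where 18.7% of all genes tested were called (10.5% higher and 8.26% lower). Their median log2 fold change was -0.73, against 0.03 over all genes. At 6 and 9 h against 0 h, 1 was higher and 15 lower, where 8.24% of all genes were called (4.84% higher and 3.40% lower), with medians of -0.73 for the 31 genes and 0.04 for all. Between 24 h and the 6 and 9 h libraries, 5 were higher and 3 lower, where 12.7% of all genes were called (6.7% higher and 6.01% lower), with medians of -0.14 for the 31 genes and 0.02 for all. The 31 genes are well expressed. Among the 2115 genes that averaged 20 tags or more, fitted alone, 41.2% were called at 24 h against 0 h (20.9% higher and 20.4% lower). Of the 31 genes 4 were higher and 19 lower there. At 6 and 9 h against 0 h 19.1% of the 2115 were called (9.13% higher and 9.98% lower), with 0 of the 31 higher and 20 lower. At 24 h against 6 and 9 h 27.4% were called (14.8% higher and 12.7% lower). There 5 of the 31 were higher and 3 lower, a share close to that of the 2115 genes.

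The counts depended on single libraries. At 6 and 9 h against 0 h, 8 of the 31 genes and 1.92% of all genes were called without the No-0 library at 0 h, and 9 and 3.28% without the slh1 library at 0 h. Leaving out No-0 at 6 h gave 11 of the 31 and 4.88% of all, and leaving out No-0 at 9 h gave 12 and 5.51%. In the comparison of 24 h with 0 h, 15 of the 31 and 9.59% of all genes were called without No-0 at 0 h, 17 and 12.3% without slh1 at 0 h, and 13 and 13.1% without slh1 at 24 h. Between 24 h and the 6 and 9 h libraries, 5 and 6.86% were called without slh1 at 24 h. Without a filter on low counts the calls of GAPA2, PRK, RPE and GLDT at 6 and 9 h and of GLDH1 and HPR1 at 24 h against 0 h were lost, and with DESeq2 those of CP12-1 and GLDT at 6 and 9 h and of GLDH1 at 24 h.

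**Figure D1:**
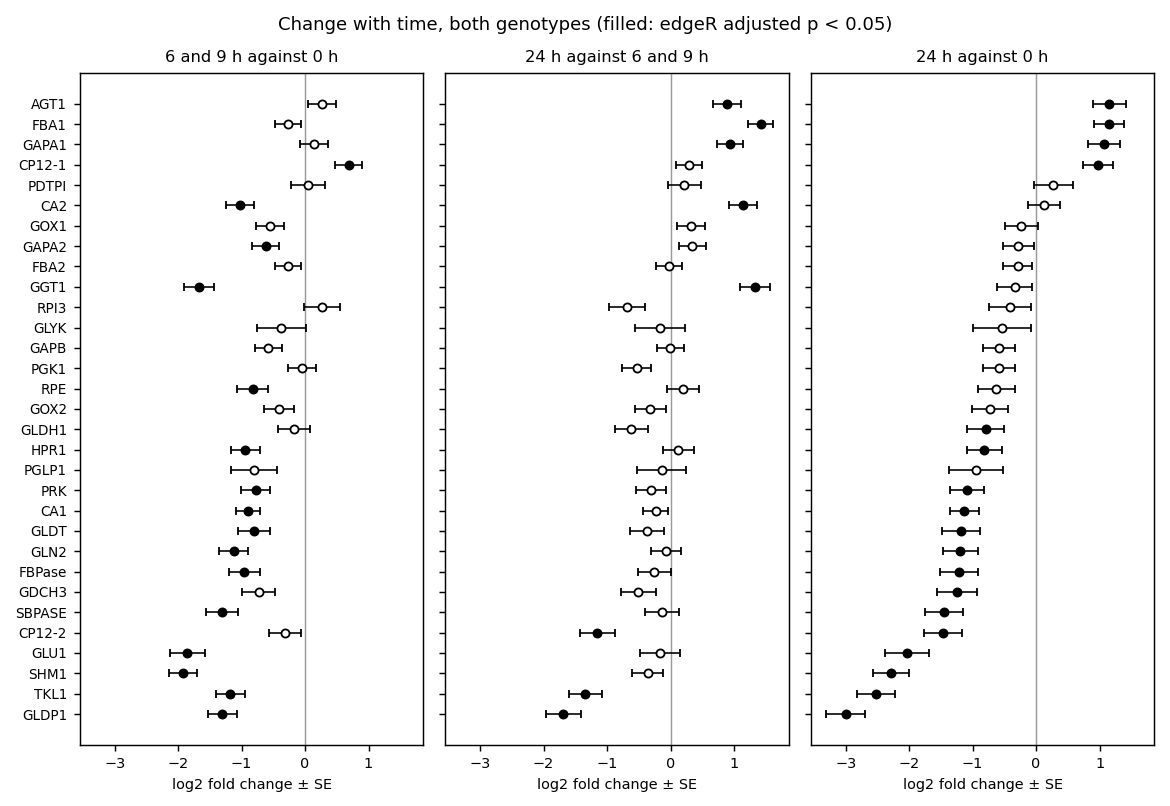
Log2 fold change with time (x axis, edgeR, both genotypes together) of the 31 genes (rows, sorted by the change at 24 h against 0 h), with bars of 1 SE and filled points for an adjusted p below 0.05. Of the 18 filled points at 24 h against 0 h, 14 lie left of 0, with GLDP1 (-3.00) and TKL1 (-2.52) lowest and AGT1, FBA1, GAPA1 and CP12-1 on the right.

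Over these 3 comparisons the genes fell into several patterns. The change at 24 h against 0 h is the sum of the other 2 changes, which limits the patterns that can occur. The patterns were not counted over all genes. The most common were lower at both 6 and 9 h and 24 h than at 0 h with no call between the later times (9 genes) and no call at all (9 genes). TKL1 and GLDP1 were lower in all 3 comparisons. GAPA1, FBA1 and AGT1 were higher at 24 h than at each earlier stage. GGT1 and CA2 were lower at 6 and 9 h than at 0 h and higher at 24 h than at 6 and 9 h. The other 6 genes were CP12-1, CP12-2, GAPA2, RPE, GLDH1 and GDCH3, described below with their values.

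Glycine decarboxylase, the mitochondrial complex that splits glycine, and serine hydroxymethyltransferase SHM1 (AT4G37930), which makes serine from its product, were lower after the transfer. All 5 genes were lower at 24 h than at 0 h and 3 of 5 were lower at 6 and 9 h. GLDP1 (AT4G33010), the P protein that decarboxylates glycine, had 1495, 703, 548 and 122 TPM in slh1, against 1219.8, 496, 476 and 191 TPM in No-0. SHM1 had 2069, 543, 560.1 and 248 TPM in slh1, against 1899, 436, 569 and 534 TPM in No-0. Both were highest at 0 h in each genotype, and no later library reached the level of either 0 h library. The log2 fold change at 24 h against 0 h was -3.00 ± 0.31 (SE, edgeR adjusted p 4.87e-17) for GLDP1 and -2.29 ± 0.28 (SE, edgeR adjusted p 3.57e-12) for SHM1. GLDP1 was also lower at 24 h than at 6 and 9 h, by -1.69 ± 0.28 (SE, edgeR adjusted p 1.52e-07). SHM1 had reached most of its change by 6 and 9 h, at -1.93 ± 0.22 (SE, edgeR adjusted p 5.01e-13) against 0 h.

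The other subunits of the complex had smaller fold changes at 24 h against 0 h. GLDT (AT1G11860), the T protein that releases ammonium, had 673, 388, 503 and 179.9 TPM in slh1, against 673, 289.5, 377 and 375 TPM in No-0. GLDH1 (AT2G35370), an H protein that carries the aminomethyl group between subunits, had 578, 522, 739 and 345 TPM in slh1, against 686, 500.0, 518 and 354 TPM in No-0. GDCH3 (AT1G32470), another H protein, had 596, 315, 404 and 168 TPM in slh1, against 521, 248, 409.7 and 280.1 TPM in No-0. Their 24 h libraries were the lowest in slh1, and in No-0 GLDT and GDCH3 were lowest at 6 h. By 24 h GLDT was at -1.19 ± 0.30 (SE, edgeR adjusted p 0.00166), GDCH3 at -1.24 ± 0.31 (SE, edgeR adjusted p 0.00131) and GLDH1 at -0.80 ± 0.29 (SE, edgeR adjusted p 0.0398) against 0 h. GLDT was called at 6 and 9 h, at -0.81 ± 0.25 (SE, edgeR adjusted p 0.0245), with a call kept under 9 of 15 other settings and lost with DESeq2 (adjusted p 0.0587), without a filter on low counts (edgeR adjusted p 0.184), and without either 0 h library or No-0 at 6 or 9 h, at -0.85 to -0.63. GDCH3, at -0.73 ± 0.26 (SE, edgeR adjusted p 0.0545) at 6 and 9 h, was just outside the threshold and was called under 6 of 15 other settings. Without the slh1 library at 24 h, GLDT moved to -0.67 (edgeR adjusted p 0.192) and GDCH3 to -0.87 (0.0815) at 24 h against 0 h. Without the No-0 library at 24 h GLDT moved to -1.94, and GLDH1 lost its call without No-0 at 0, 9 or 24 h or slh1 at 6, 9 or 24 h, its value then lying between -0.84 and -0.66.

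As a group, the 4 subunit genes and SHM1 summed to 5411, 2471, 2754 and 1063 TPM in slh1, against 4999, 1969.9, 2349.5 and 1734 TPM in No-0. The 24 h level was 0.196 (0.169 to 0.227) of the 0 h level in slh1 and 0.347 (0.320 to 0.376) in No-0, in 1 library each, and the test of the genotype difference at 24 h, given with the other comparisons of genotype, called 0 of these 5 genes.

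Both genes of ammonium refixation were lower as well. GLN2 (AT5G35630), the chloroplast glutamine synthetase, had 1326, 498, 550.1 and 516 TPM in slh1, against 1252, 655, 701 and 570.1 TPM in No-0. GLU1 (AT5G04140), the ferredoxin-dependent glutamate synthase that works with it, had 583, 159.9, 189 and 73.0 TPM in slh1, against 482, 124, 118 and 161 TPM in No-0. For each gene both 0 h libraries lay above the other 6. At 6 and 9 h against 0 h GLU1 was at -1.86 ± 0.28 (SE, edgeR adjusted p 2.84e-08) and GLN2 at -1.12 ± 0.23 (SE, edgeR adjusted p 9.13e-05). The values at 24 h against 0 h were -2.03 ± 0.35 (SE, edgeR adjusted p 6.36e-07) for GLU1 and -1.19 ± 0.28 (SE, edgeR adjusted p 0.000349) for GLN2. The call of GLN2 at 6 and 9 h was lost without the slh1 library at 0 h, at -0.93 (edgeR adjusted p 0.0755).

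Among the peroxisomal enzymes, the glycolate oxidases GOX1 (AT3G14420) and GOX2 (AT3G14415), which make glyoxylate, did not pass the threshold. GOX1 had 1431, 1132, 1033 and 1007 TPM in slh1, against 1404.5, 830, 894 and 1297 TPM in No-0. GOX2 had 803, 670, 764 and 462 TPM in slh1, against 812, 426, 632 and 469 TPM in No-0. GOX1 was at -0.56 ± 0.22 (SE, edgeR adjusted p 0.104) at 6 and 9 h against 0 h and was called there under 5 of 15 other settings. GOX2 was at -0.73 ± 0.28 (SE, edgeR adjusted p 0.0533) at 24 h against 0 h and was called there under 6 of 15. AGT1 (AT2G13360), a serine:glyoxylate aminotransferase, was higher at 24 h, with 887, 1109, 921 and 2043 TPM in slh1, against 802, 1024, 1026 and 1569 TPM in No-0. In both genotypes its 24 h library was the highest. It stood at 1.15 ± 0.26 (SE, edgeR adjusted p 0.000243) against 0 h and 0.89 ± 0.22 (SE, edgeR adjusted p 0.00104) against 6 and 9 h on the log2 scale, and the last value fell to 0.68 (edgeR adjusted p 0.104) without the slh1 library at 24 h. GGT1 (AT1G23310), a glutamate:glyoxylate aminotransferase, had 1032, 472, 202 and 618 TPM in slh1, against 948, 395, 253 and 892 TPM in No-0. It was lowest at 9 h in both genotypes, and its 24 h level was 0.599 (0.476 to 0.750) of the 0 h level in slh1 and 0.941 (0.816 to 1.09) in No-0. The change was -1.67 ± 0.24 (SE, edgeR adjusted p 3.94e-09) at 6 and 9 h against 0 h and 1.33 ± 0.24 (SE, edgeR adjusted p 2.25e-06) at 24 h against 6 and 9 h. Its level at 24 h against 0 h, at -0.34 ± 0.28 (SE, edgeR adjusted p 0.43), did not pass the threshold.

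HPR1 (AT1G68010), the hydroxypyruvate reductase of the peroxisome, had 1097, 576, 448 and 520.4 TPM in slh1, against 1012, 706, 511 and 632 TPM in No-0. Its 0 h libraries were the highest, and it was at -0.94 ± 0.23 (SE, edgeR adjusted p 0.0021) at 6 and 9 h and -0.82 ± 0.28 (SE, edgeR adjusted p 0.0232) at 24 h against 0 h. The first call was lost without the slh1 library at 0 h (-0.76, edgeR adjusted p 0.214), and the second without either slh1 library at 0 or 24 h or the No-0 library at 24 h, at -0.67, -0.77 and -0.85. In the chloroplast, GLYK (AT1G80380), the kinase that returns glycerate to the cycle, had 99.7, 93.9, 97.1 and 77.8 TPM in slh1, against 129.6, 82.7, 85.2 and 75.5 TPM in No-0. PGLP1 (AT5G36700), which removes the phosphate of phosphoglycolate, lay between 65.7 and 169 TPM. Neither was called in any comparison, although PGLP1 was called lower at both 6 and 9 h and 24 h against 0 h among the 2115 genes fitted alone, and they were the least abundant of the 31 genes, with SEs of up to 0.45 at 24 h against 0 h.

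**Figure D2:**
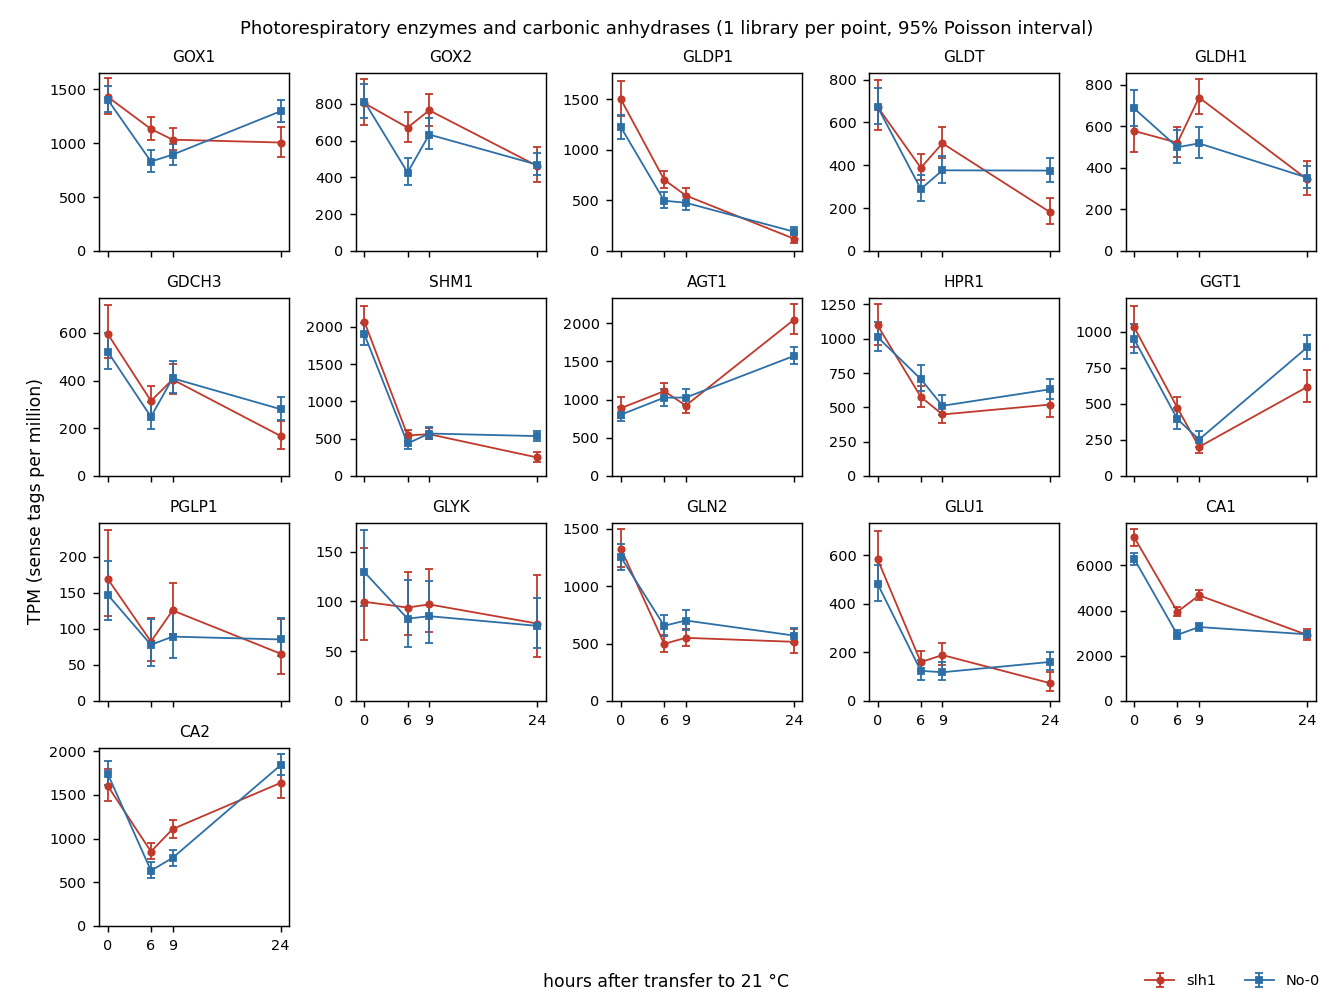
TPM (y axis, starting at 0) of the 14 photorespiratory genes and both carbonic anhydrases against hours after transfer (x axis), slh1 in red circles and No-0 in blue squares, with 1 library per point and 95% Poisson intervals. GLDP1 ends at 122 TPM (slh1) and 191 TPM (No-0), AGT1 ends above all its earlier points in both genotypes, and GGT1 and CA2 dip at 6 and 9 h.

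In the regeneration phase of the Calvin cycle, transketolase, both bisphosphatases and PRK (AT1G32060) were lower after the transfer. TKL1 (AT3G60750), the transketolase that moves carbon pairs between sugars, had 1615, 718, 879 and 151 TPM in slh1, against 1544, 512, 729 and 364 TPM in No-0. It was at -1.18 ± 0.23 (SE, edgeR adjusted p 3.56e-05) at 6 and 9 h against 0 h, at -2.52 ± 0.29 (SE, edgeR adjusted p 9.23e-14) at 24 h against 0 h, and at -1.35 ± 0.26 (SE, edgeR adjusted p 1.71e-05) at 24 h against 6 and 9 h. That last value was -0.76 (edgeR adjusted p 0.114) without the slh1 library at 24 h and -2.20 without the No-0 library at 24 h. SBPASE (AT3G55800), which dephosphorylates sedoheptulose bisphosphate and commits carbon to regeneration, had 783, 322, 344 and 219 TPM in slh1, against 731, 232, 335 and 304 TPM in No-0. FBPase (AT3G54050), the chloroplast enzyme that acts in the same way on fructose bisphosphate, had 723, 391, 436 and 282 TPM in slh1, against 829.7, 359.5, 423 and 358 TPM in No-0. In each of these 3 genes both 0 h libraries lay above all later ones. SBPASE was at -1.31 ± 0.25 (SE, edgeR adjusted p 2.44e-05) at 6 and 9 h and -1.45 ± 0.31 (SE, edgeR adjusted p 7.12e-05) at 24 h against 0 h, and FBPase at -0.96 ± 0.24 (SE, edgeR adjusted p 0.00341) and -1.21 ± 0.30 (SE, edgeR adjusted p 0.000802). Without either 0 h library the first value of FBPase was -1.03 (slh1 left out) or -0.91 (No-0 left out) and not called.

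PRK, which makes the CO2 acceptor, had 1540.3, 891, 865 and 525 TPM in slh1, against 1365, 776, 877 and 787 TPM in No-0. It was at -0.78 ± 0.22 (SE, edgeR adjusted p 0.0117) at 6 and 9 h and -1.09 ± 0.27 (SE, edgeR adjusted p 0.000946) at 24 h against 0 h. The 24 h value was -0.79 (edgeR adjusted p 0.0722) without the slh1 library at 24 h, and the earlier call was lost without either library at 0 or 9 h or No-0 at 6 h, at -0.95 to -0.63. RPE (AT5G61410), the ribulose phosphate epimerase, had 907, 558, 406 and 423 TPM in slh1, against 642, 331, 456 and 515 TPM in No-0. It was lower at 6 and 9 h, at -0.83 ± 0.24 (SE, edgeR adjusted p 0.0154), and lost this call without either 0 h library, No-0 at 6 h or slh1 at 9 h, at -1.04 to -0.62. PDTPI (AT2G21170), the plastid triose phosphate isomerase, had 329, 338, 461 and 359.9 TPM in slh1, against 369, 296, 379 and 445 TPM in No-0 and was among the steadiest of the 31 genes. RPI3 (AT3G04790), a ribose phosphate isomerase, lay between 151 and 448 TPM and was not called.

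**Figure D3:**
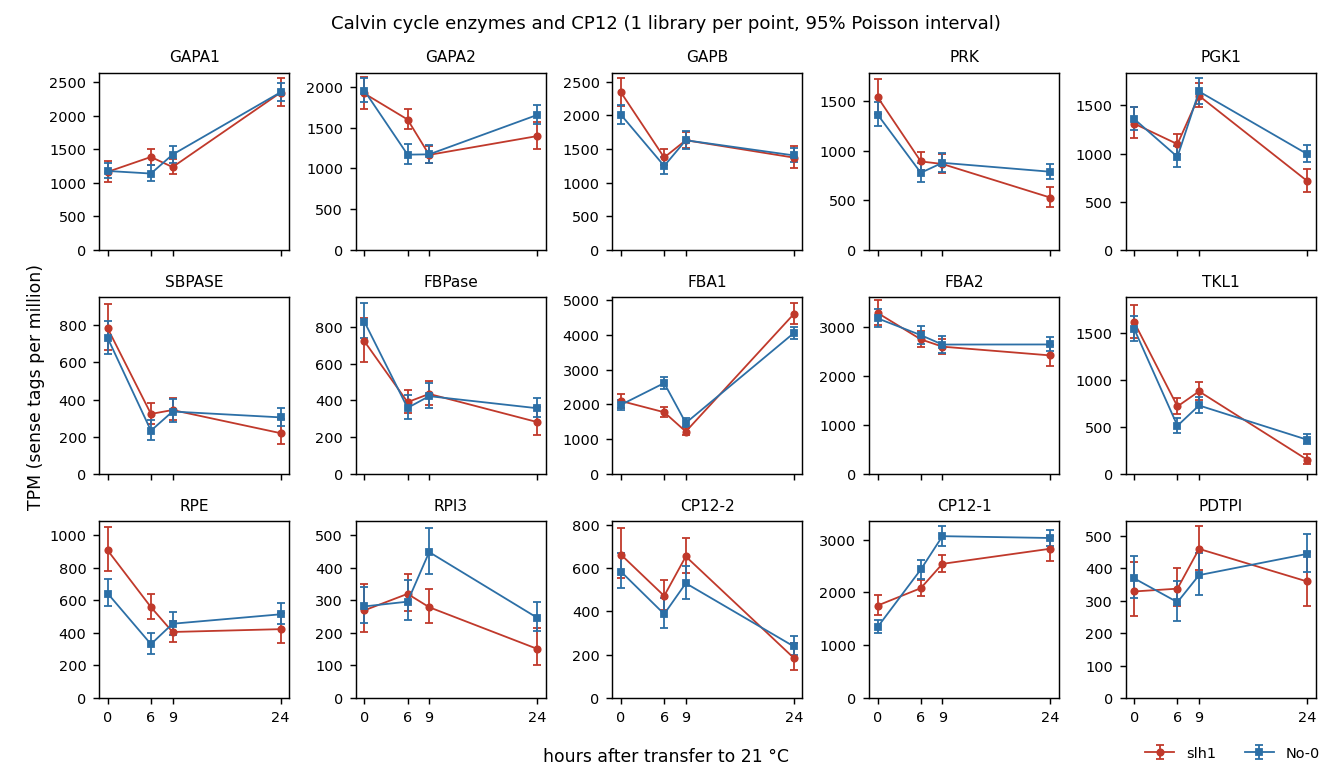
TPM (y axis, starting at 0) of the 15 Calvin cycle genes and CP12 regulators against hours after transfer (x axis), slh1 in red circles and No-0 in blue squares, with 1 library per point and 95% Poisson intervals. TKL1, SBPASE, FBPase and PRK start highest at 0 h in both genotypes, whereas FBA1 and GAPA1 reach their highest points at 24 h.

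The plastid aldolases, which join triose phosphates, parted from each other. FBA1 (AT2G21330) had 2099, 1774, 1217 and 4606 TPM in slh1, against 1989, 2615, 1466 and 4056 TPM in No-0. FBA2 (AT4G38970) had 3285, 2745, 2596 and 2417 TPM in slh1, against 3174, 2832, 2639 and 2641 TPM in No-0. FBA1 was higher at 24 h, by 1.15 ± 0.24 (SE, edgeR adjusted p 6.25e-05) against 0 h and 1.42 ± 0.20 (SE, edgeR adjusted p 8.41e-10) against 6 and 9 h, and the first value was 0.93 (edgeR adjusted p 0.0653) without the No-0 library at 0 h. FBA2 had the smallest spread of the 31 genes and was not called in any comparison. In the reduction phase GAPA1 (AT3G26650), an A subunit of the chloroplast glyceraldehyde phosphate dehydrogenase, had 1161, 1383, 1232 and 2344 TPM in slh1, against 1174, 1136, 1419 and 2349 TPM in No-0. Its partner gene GAPA2 (AT1G12900) had 1919, 1599, 1165 and 1396 TPM in slh1, against 1954, 1168, 1171 and 1656 TPM in No-0. GAPA1 was higher at 24 h, by 1.07 ± 0.25 (SE, edgeR adjusted p 0.000468) against 0 h and 0.93 ± 0.21 (SE, edgeR adjusted p 0.000277) against 6 and 9 h. GAPA2 was lower at 6 and 9 h, at -0.62 ± 0.21 (SE, edgeR adjusted p 0.0461), a call kept under 7 of 15 other settings and lost without any of the 6 libraries at 0, 6 and 9 h, at -0.67 to -0.54. GAPB (AT1G42970), the B subunit, had 2343, 1373, 1630.4 and 1371 TPM in slh1, against 2009.6, 1247, 1631 and 1404 TPM in No-0 and was at -0.58 ± 0.21 (SE, edgeR adjusted p 0.0648) at 6 and 9 h and -0.58 ± 0.25 (SE, edgeR adjusted p 0.0851) at 24 h against 0 h, neither of which passed the threshold, while 7 and 3 of 15 other settings called it. PGK1 (AT3G12780), the phosphoglycerate kinase, lay between 715 and 1646 TPM and was called only at 24 h against 0 h among the 2115 genes fitted alone.

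CP12 proteins bind glyceraldehyde phosphate dehydrogenase and PRK into an inactive complex in the dark. CP12-1 (AT2G47400) had 1749.6, 2079, 2539 and 2826 TPM in slh1, against 1342, 2432, 3063 and 3028 TPM in No-0. CP12-2 (AT3G62410) had 663, 472, 655 and 185 TPM in slh1, against 584, 388, 531 and 238 TPM in No-0. CP12-1 was called higher at 6 and 9 h, at 0.69 ± 0.21 (SE, edgeR adjusted p 0.0248), a call kept under 9 of 15 other settings, and was at 0.98 ± 0.24 (SE, edgeR adjusted p 0.000967) at 24 h against 0 h, whereas CP12-2 was at -1.47 ± 0.31 (SE, edgeR adjusted p 5.74e-05) at 24 h against 0 h and -1.15 ± 0.27 (SE, edgeR adjusted p 0.000738) against 6 and 9 h. Without the No-0 library at 0 h CP12-1 was at 0.39 and 0.62 in these comparisons and was not called, and its first call was also lost without the No-0 library at 6 h (0.59) or 9 h (0.66), with RLE size factors (0.61), with DESeq2 (0.61) and among the 2115 genes fitted alone (0.50). The second value of CP12-2 was -0.90 (edgeR adjusted p 0.0701) without the slh1 library at 24 h.

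Carbonic anhydrase CA1 (AT3G01500) was the most abundant of the 31 genes, with 7240.3, 3948, 4672 and 2925 TPM in slh1, against 6288, 2927, 3272 and 2949.6 TPM in No-0. CA2 (AT5G14740) had 1603, 850.4, 1108 and 1637 TPM in slh1, against 1739, 633, 778 and 1838 TPM in No-0. Both were lower at 6 and 9 h than at 0 h, at -0.89 ± 0.19 (SE, edgeR adjusted p 0.000186) for CA1 and -1.02 ± 0.22 (SE, edgeR adjusted p 0.000182) for CA2, and both calls were lost without the No-0 library at 0 h, at -0.87 and -0.86. At 24 h they differed. CA1 was still lower than at 0 h, at -1.13 ± 0.23 (SE, edgeR adjusted p 2.54e-05), while CA2 was at 0.12 ± 0.25 (SE, edgeR adjusted p 0.787) against 0 h, which did not pass the threshold, and was higher than at 6 and 9 h by 1.14 ± 0.21 (SE, edgeR adjusted p 7.24e-06).

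Because tags fall near the 3′ end, closely related genes can be counted apart only if their ends differ. The last 60 coding bases of 4 pairs are shown for this reason, from the TAIR10.1 assembly of RefSeq, which is of Columbia and not of No-0. Capitals mark the bases at which the genes of a pair differ. The pairs had 3 (GAPA1 and GAPA2), 13 (FBA1 and FBA2), 13 (CP12-1 and CP12-2) and 9 (GOX1 and GOX2) such bases.
GAPA1: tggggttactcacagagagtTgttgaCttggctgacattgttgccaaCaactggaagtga
GAPA2: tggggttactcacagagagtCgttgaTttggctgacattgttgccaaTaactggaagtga
FBA1: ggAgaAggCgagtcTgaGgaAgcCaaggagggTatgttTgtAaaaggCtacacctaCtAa
FBA2: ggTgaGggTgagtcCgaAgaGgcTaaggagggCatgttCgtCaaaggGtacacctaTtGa
CP12-1: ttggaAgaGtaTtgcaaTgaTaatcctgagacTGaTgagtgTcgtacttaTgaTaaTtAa
CP12-2: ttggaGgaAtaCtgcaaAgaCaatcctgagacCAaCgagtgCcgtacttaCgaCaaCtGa
GOX1: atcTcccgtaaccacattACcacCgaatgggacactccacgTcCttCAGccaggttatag
GOX2: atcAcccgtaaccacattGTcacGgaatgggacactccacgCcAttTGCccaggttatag
These genes lie on chromosome 3 (GAPA1), 1 (GAPA2), 2 (FBA1 and CP12-1), 4 (FBA2) and 3 (CP12-2). GOX1 (chr3:4821391-4824178) and GOX2 (chr3:4818251-4821013) are tandem neighbours. In the last 500 bases of the annotated transcripts, these 4 pairs and GLDH1 with GDCH3 shared 0 windows of 36 bases, the length of a tag. A tag there without mismatch therefore belongs to only 1 gene of its pair. Other loci were not searched, and FBA2 had fractions in 4 libraries, GLDH1 and GDCH3 in 3 each and CP12-1 in 2. CA1 and CA2 shared 7 such windows.

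In 4 of 6 close pairs the share of the first gene at 24 h differed from that at 0 h by more than counting error in both genotypes. The share of GAPA1 in the GAPA1 and GAPA2 tags was 37.7%, 46.4%, 51.4% and 62.7% in slh1 and 37.5%, 49.3%, 54.8% and 58.6% in No-0, at 0, 6, 9 and 24 h. The 24 h shares (exact 95% binomial intervals 59.2% to 66.1% in slh1 and 56.4% to 60.8% in No-0) lay above the 0 h shares (33.9% to 41.7% and 34.7% to 40.4%). FBA1 took 39.0%, 39.2%, 31.9% and 65.6% in slh1 and 38.5%, 48.0%, 35.7% and 60.6% in No-0 of the aldolase pair, so that FBA1 passed FBA2 only at 24 h. CP12-1 took 72.5%, 81.5%, 79.5% and 93.9% in slh1 and 69.7%, 86.2%, 85.2% and 92.7% in No-0 of its pair. CA1 held 81.8%, 82.3%, 80.8% and 64.2% in slh1 and 78.3%, 82.2%, 80.8% and 61.6% in No-0 of the carbonic anhydrase pair and its share was lowest at 24 h. GOX1 held 64.1%, 62.8%, 57.5% and 68.5% in slh1 and 63.4%, 66.1%, 58.6% and 73.5% in No-0 of the glycolate oxidase pair, with its highest share at 24 h, and GLDH1 held 49.2%, 62.4%, 64.7% and 67.6% in slh1 and 56.8%, 66.8%, 55.8% and 55.8% in No-0 of the H protein pair, with wide intervals in the slh1 library at 24 h (57.8% to 76.4%).

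**Figure D4:**
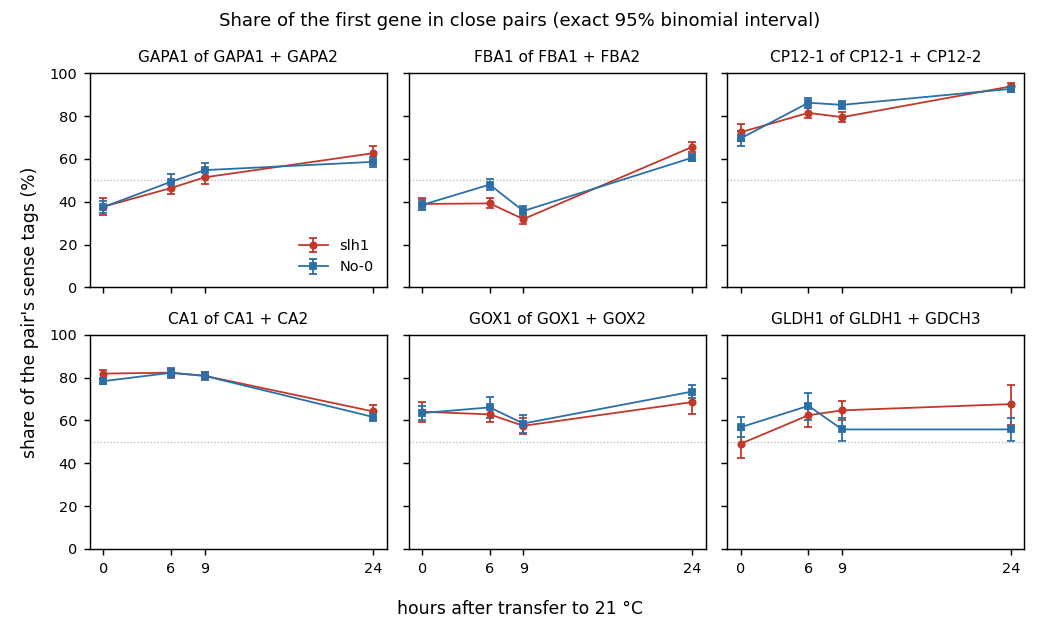
Share of the first gene in the sense tags of each pair (y axis, percent, 0 to 100) against hours after transfer (x axis), slh1 in red circles and No-0 in blue squares, with 1 library per point and exact 95% binomial intervals. GAPA1 and FBA1 go above the dotted line at 50% by 24 h in both genotypes, and CA1 drops to 64.2% in slh1 and 61.6% in No-0.

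The slh1 mutant was compared with No-0 at 21 °C, with the time point as a block and 2 residual degrees of freedom, to see which of the genes differ after the shift. With edgeR 0 of the 31 genes were called, where 0.102% of all genes were (0.0235% without the 0 h pair and 0.679% without the 24 h pair). Unadjusted p lay below 0.05 for 5.33% of all genes and for 4 of the 31 (12.9%), FBA1 (-0.39 ± 0.18, SE), CP12-1 (-0.37 ± 0.18), RPI3 (-0.60 ± 0.26) and GLN2 (-0.48 ± 0.22). DESeq2 and limma-voom called 0 of the 31 as well. SEs ran from 0.16 for CA1 to 0.36 for GLYK, so that a difference of the size of 1 SE was not detectable. The median over the 31 genes was -0.15, with 27 below 0, against -0.05 over all genes. With scaling to total sense tags the median of all genes moved to 0.14 and that of the 31 genes to 0.03, with 14 below 0, so that no common direction can be given. Without the 24 h pair, FBA1 was called lower in slh1, at -0.64 ± 0.15 (edgeR adjusted p 0.0422).

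The genotypes were also set side by side 1 library against 1, without a test. On log2(TPM + 5), a scale that compresses the changes of low genes, 0 of the 31 genes differed by 2-fold or more at 0, 6 and 9 h, where 11.2%, 10.1% and 7% of the 2115 genes that averaged 20 tags did. In the 24 h libraries, 4 were at least 2-fold lower in slh1 and 0 higher, where 11% of those genes were lower and 3.31% higher. The ratio of slh1 to No-0 at 24 h was 0.415 for TKL1 (exact 95% binomial interval 0.274 to 0.609), 0.453 for GLU1 (0.243 to 0.793), 0.464 for SHM1 (0.337 to 0.628) and 0.479 for GLDT (0.327 to 0.685). The median difference of the 31 genes at 24 h was -0.30, with 28 below 0, against -0.16 over the 2115 genes. AGT1, at 1.302 (1.15 to 1.47), and FBA1, at 1.14 (1.05 to 1.23), were the genes with an interval above 1.

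**Figure D5:**
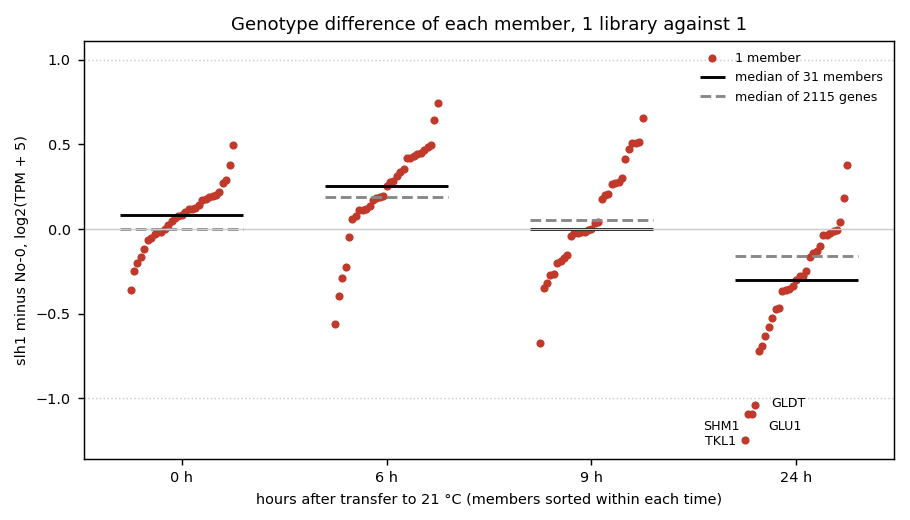
Difference between slh1 and No-0 on the scale log2(TPM + 5) (y axis) for each of the 31 genes at each time point (x axis, genes sorted by value), with the median of the 31 genes as a solid line and that of 2115 genes as a dashed line. The dotted lines mark 2-fold. At 24 h TKL1, SHM1, GLU1 and GLDT lie below the lower one and the median is -0.30.

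Whether the genotype difference at 24 h departs from that at 0, 6 and 9 h was tested with an extra genotype term. With edgeR 0 of the 31 genes were called, where 0.256% of all genes were (0.156% without the 9 h pair and 2.16% without the 0 h pair), and DESeq2 and limma-voom called 0. Unadjusted p lay below 0.05 for 6.86% of all genes and for 4 of the 31 (12.9%), TKL1 (-1.44 ± 0.45, SE), GLU1 (-1.47 ± 0.57), GLDT (-1.24 ± 0.47) and SHM1 (-1.15 ± 0.43), where the median of all genes was -0.28. Their lowest edgeR adjusted p was 0.187, for TKL1. Without the 0 h pair, TKL1 (-1.39 ± 0.39, edgeR adjusted p 0.023) and FBA1 (0.86 ± 0.25, 0.0312) were called. The slh1 library at 24 h is among the smallest, at 232897 tags, and its part in this difference was not tested.

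Between 6 and 9 h, both in the light period at 21 °C, the genes were compared in single libraries, without a test. GGT1 at 9 h had a ratio to 6 h of 0.427 (exact 95% binomial interval 0.325 to 0.557) in slh1 and 0.641 (0.484 to 0.847) in No-0. FBA1 stood at 0.686 (0.610 to 0.771) in slh1 and 0.560 (0.502 to 0.626) in No-0, and PGK1 at 1.46 (1.29 to 1.65) in slh1 and 1.70 (1.48 to 1.96) in No-0. GGT1 in slh1 was the only case of a 2-fold difference on log2(TPM + 5), where 9.41% of the 2115 genes in slh1 and 12% in No-0 reached it.

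The 250 bases upstream of each gene were searched on both strands for motifs that plant promoters hold. The G-box CACGTG, a site of bZIP and bHLH factors, was in 4 of the 31 windows (12.9%), against 6.49% of 27443 such windows in the TAIR10.1 annotation of RefSeq. The CRT/DRE core CCGAC was in 4 (12.9%), against 12.0% of all. The I-box core GATAAG was in 2, against 12.3% of all, the CCA1-binding site AAAAATCT in 1, against 6.69%, and the evening element AAAATATCT in 0, against 2.36%. None of these motifs contains another. The 4 windows with a G-box are shown, since the genes behind them, PRK, FBPase, GLDP1 and GGT1, were all called lower at 6 and 9 h, as were 11 others without the motif. Each is given 5′ to 3′ on the strand of its gene, ending at the base before the annotated start, with motif matches on either strand in capitals: the G-box in all, the I-box core as CTTATC in FBPase and the CRT/DRE core as GTCGG in GLDP1.
PRK: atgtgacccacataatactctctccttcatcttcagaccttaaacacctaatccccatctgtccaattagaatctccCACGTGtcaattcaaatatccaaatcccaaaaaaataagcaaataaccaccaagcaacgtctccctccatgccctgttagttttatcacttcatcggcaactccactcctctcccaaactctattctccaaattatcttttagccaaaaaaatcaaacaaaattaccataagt
FBPase: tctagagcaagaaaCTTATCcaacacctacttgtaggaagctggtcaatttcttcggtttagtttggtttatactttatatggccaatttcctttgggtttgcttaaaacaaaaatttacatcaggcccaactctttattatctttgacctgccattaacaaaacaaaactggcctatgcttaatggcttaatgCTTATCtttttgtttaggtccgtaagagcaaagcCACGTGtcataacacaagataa
GLDP1: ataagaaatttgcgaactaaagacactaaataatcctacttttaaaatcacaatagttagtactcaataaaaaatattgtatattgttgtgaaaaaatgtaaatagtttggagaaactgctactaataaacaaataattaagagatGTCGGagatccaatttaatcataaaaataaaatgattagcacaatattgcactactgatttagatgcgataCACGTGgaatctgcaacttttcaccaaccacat
GGT1: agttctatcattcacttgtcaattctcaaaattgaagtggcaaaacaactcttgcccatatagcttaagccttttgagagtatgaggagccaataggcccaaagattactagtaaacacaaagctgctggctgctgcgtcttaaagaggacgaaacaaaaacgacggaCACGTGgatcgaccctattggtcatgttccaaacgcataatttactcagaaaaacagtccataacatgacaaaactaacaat
The windows are chr1:11531949-11532198 on the plus strand (PRK), chr3:20016587-20016836 on the plus strand (FBPase), chr4:15931423-15931672 on the minus strand (GLDP1) and chr1:8272022-8272271 on the minus strand (GGT1), in TAIR10.1. A match is a run of letters and not a shown binding site.

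A further 43 genes of the same pathways were listed, of which 34 passed the filter on low counts. At 24 h against 0 h, 2 were higher and 7 lower, with a median of -0.48, where 10.5% of all genes tested were higher and 8.26% lower. The largest changes were in GGT2, another glutamate:glyoxylate aminotransferase, at -3.55 ± 0.73 (SE), the plastid dicarboxylate transporter DiT1 at -1.71 ± 0.36, the lipoamide dehydrogenase MTLPD1 of the glycine decarboxylase complex at -1.57 ± 0.35, FBA3, another plastid aldolase, at 1.37 ± 0.46 and the transporter DiT2.1 at -1.35 ± 0.50, with edgeR adjusted p of 4.01e-05 to 0.0424. GGT2 had 115, 63.5, 29.9 and 4.86 TPM in slh1, against 99.2, 41.4, 24.7 and 9.93 TPM in No-0. Its 24 h values rest on 1 tag in slh1 and 5 tags in No-0. FBA3 rests at 0 h on 8 tags in slh1 and 20 tags in No-0. At 24 h DiT1 rests on 10 tags in slh1 and 66 in No-0, and DiT2.1 on 6 in slh1 and 28 in No-0. At 6 and 9 h against 0 h, 1 was higher and 7 lower, where 4.84% of all genes were higher and 3.4% lower. These calls were led by GGT2 (-1.50 ± 0.49), the peroxisomal catalase CAT2 (-1.41 ± 0.23), FBA3 (1.41 ± 0.42), GLDP2 (-1.24 ± 0.35) and Rubisco activase RCA (-0.93 ± 0.20). For 24 h against 6 and 9 h, 2 were higher and 4 lower, where 6.7% of all genes were higher and 6.01% lower. These calls were led by CAT2 (2.54 ± 0.23), GGT2 (-2.04 ± 0.71), DiT1 (-1.12 ± 0.33), the thioredoxin TRXF1 (-0.995 ± 0.26) and MTLPD1 (-0.90 ± 0.31). CAT2, which removes the peroxide made by glycolate oxidase, had 698, 777, 137 and 1532 TPM in slh1, against 989.6, 659, 140.2 and 1998 TPM in No-0. It was lowest at 9 h in both genotypes, as GGT1 was. In the comparisons between genotypes, 0 of the 34 genes were called with edgeR or DESeq2, where edgeR called 0.102% and 0.256% of all genes. With limma-voom 1 was lower in slh1 than in No-0 at 21 °C, the Rubisco small subunit gene RBCS1A, where 0.166% of all genes were lower. Unadjusted edgeR p lay below 0.05 for 2 of the 34 in slh1 against No-0 at 21 °C, BCA6 and RBCS1A, and for 5.33% of all genes. With the extra 24 h term it did so for 3, TRXF1, HAOX2 and DiT1, and for 6.86% of all genes. These genes were named after their values were seen. With edgeR, RBCS1A was called with nuclear genes only (-0.41, adjusted p 0.0115), BCA6 without the 24 h pair (-0.95, 0.0350) and, for the extra 24 h term, TRXF1 without the 0 h pair (1.18, 0.0372).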

How the data were processed

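Leaves of slh1 and No-0 were profiled by EXPRSS Tag-seq, and libraries were grouped by the genotype and time in their labels. A sample labelled as unassigned reads, with no genotype or time, was not used here. For each library the authors deposited expected counts, the tags per locus before any scaling to depth. Per the study's methods, reads were filtered and aligned to TAIR10 and transcripts, and a read on several genes was split equally between them, so that counts need not be whole. The submitters' processing notes list Bowtie 0.12.8, Novoalign 2.08.03 and R 2.15.3, and the methods name BWA for paired reads. Which of them gave these counts is not stated. Rows with a prefixed locus were read as antisense, which the files do not state. The tags carried no molecular identifiers, and PCR copies count as tags.

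Expected counts were rounded and tested with edgeR 4.0.16 in R 4.3.3 (quasi-likelihood F test, TMM, filterByExpr by genotype and temperature, Benjamini-Hochberg over 7824 genes, threshold 0.05). SEs were derived from the fold change and F. The study's own test needs replicates and was not used. All p-values rest on the spread between single libraries of different genotypes or times, and not on replicates of 1 condition. This spread is drawn in part from all genes, and the residual degrees of freedom given are those of 1 gene before that. The tests were tried on simulated counts first. Intervals are exact 95% Poisson (levels) or Clopper-Pearson intervals (ratios, shares). Alternatives were RLE factors, total sense tags, nuclear genes only, no filter, a mean of at least 20 tags, DESeq2 1.42.0, limma-voom 3.58.1, other genotype terms and leaving out each library or pair. TAIR10.1 of RefSeq gave symbols, coordinates and sequences, since the tables hold no coordinates.

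The members, gene lists and tests were chosen with earlier results of these data known. Per-library values are given for genes called in any comparison, the 5 largest and 5 smallest ratios, the 5 highest means and the close pairs. Of the 43 other pathway genes, up to 5 called ones by fold change are named per comparison.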

Additional observations from a re-analysis of the deposited data

Results flagged for a closer look

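The genotypes moved in opposite directions in several genes, by the difference of log2(TPM + 5) between the mean of 6 and 9 h and another time. These differences between genotypes were not tested in this form, and the test of the genotype difference at 24 h against 0, 6 and 9 h called 0 of the 31 genes with edgeR. At 6 and 9 h against 0 h, PGK1 stood at 0.02 in slh1 and -0.11 in No-0, PDTPI at 0.26 in slh1 and -0.14 in No-0, and GLDH1 at 0.10 in slh1 and -0.43 in No-0. Of the 2115 genes that averaged 20 tags, 28.7% had opposite signs in this comparison, and of the 31 genes 9.68% did. The median over the 2115 genes was 0.26 in slh1 and 0.14 in No-0, and with these medians taken off 0 of the 3 kept opposite signs. At 24 h against 6 and 9 h, 8 genes (25.8%) had opposite signs, where 27.8% of the 2115 did. Those furthest apart were GLU1 at -1.20 in slh1 and 0.40 in No-0, GLDT at -1.27 in slh1 and 0.18 in No-0, and SHM1 at -1.14 in slh1 and 0.10 in No-0. The others were SBPASE (-0.59 in slh1, 0.12 in No-0), RPE (-0.17 in slh1, 0.40 in No-0), PDTPI (-0.13 in slh1, 0.40 in No-0), GOX1 (-0.10 in slh1, 0.59 in No-0) and PGLP1 (-0.60 in slh1, 0.03 in No-0). In these 8 the No-0 value was the positive one. The median over the 2115 genes was -0.32 in slh1 and -0.04 in No-0, and with these medians taken off 5 of the 8 kept opposite signs (GLU1, GLDT, SHM1, SBPASE and PGLP1) and 3 more genes gained them. At 24 h against 0 h all 31 genes had the same sign in both genotypes, where 20.7% of the 2115 genes had opposite signs.

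Antisense tags, which no comparison used, were found at the same loci, with 3726 over the 8 libraries. They made up 3.65% to 4.78% of the tags at these loci, against 10.1% to 12.3% over all loci. More than 3 antisense tags in at least 1 library were found at 30 of the 31 loci. The highest values in a single library were 128 tags at CA1 and 116 tags at AGT1.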

How the results depend on the processing

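Over 15 other settings, 0 calls of the 31 genes reversed. Of the calls for 24 h against 0 h, 11 of 18 held under all settings, at 6 and 9 h against 0 h 6 of 16, and at 24 h against 6 and 9 h 5 of 8. How often calls held was not counted over all genes. These counts, and the ranges given next for leaving out 1 library or pair, show only how the calls depend on the settings. They are no result about the 31 genes. Leaving out 1 library or pair gave 0 to 1 called genes for slh1 against No-0, 0 to 2 for the extra 24 h term, 13 to 19 at 24 h against 0 h, 8 to 19 at 6 and 9 h against 0 h and 5 to 10 at 24 h against 6 and 9 h, with the fewest at 6 and 9 h without the No-0 library at 0 h. Over all genes, slh1 against No-0 gave 8 calls (2 higher, 6 lower), 10 with RLE (6, 4), 9 with total sense tags (8, 1), 30 with nuclear genes only, 19 with 1 genotype term, 20 with limma-voom, 1 with DESeq2 or no time block, 1 with a mean of at least 20 tags, 4 without a filter and up to 47 without the 24 h pair. The extra 24 h term gave 20 (15, 5), 26 with RLE (23, 3), 12 of 18 higher with total sense tags, 4 with DESeq2, 13 with a mean of at least 20 tags or without a filter, and 92 without the 0 h pair. In the time comparisons edgeR called 1465 (24 h against 0 h), 645 (6 and 9 h against 0 h) and 994 genes (24 h against 6 and 9 h), DESeq2 called 829, 289 and 514, and a mean of at least 20 tags left 872, 404 and 580. Without a filter 1039, 389 and 689 were called. At 6 and 9 h the split was 379 and 266, and 286 and 326 with limma-voom. With 1.5-fold in place of 2-fold, slh1 and No-0 stood apart in 2 genes at 6 h, in 2 at 9 h and in 7 at 24 h, and a pseudocount of 20 TPM left 2 at 24 h. The shares of all genes at these settings are not given here, so these counts are no result about the 31 genes. Already at 2-fold, 11% of the 2115 genes were lower and 3.31% higher in slh1 at 24 h. With sense and antisense tags, the summed TPM at 0, 6, 9 and 24 h were 37448, 24961, 26219.9 and 25582 in slh1, against 34683, 22644, 24729.5 and 27765.5 in No-0. With nuclear tags only they were 53416, 33075, 34929.5 and 35445 in slh1, against 50945, 32906, 33620.0 and 36593.5 in No-0. With TMM they were 27201, 27938 and 30787 at 6, 9 and 24 h in slh1, against 42456, 29987, 29927 and 35561 at 0, 6, 9 and 24 h in No-0. The labels give no replicate numbers, and with 1 library per genotype and time there were no replicates to pair. The fits themselves hold a term for each time point and for the genotype. The depth of the slh1 libraries at 0 and 24 h limits the low genes most.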

Other observations

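The balance of GLDP1 and its homologue GLDP2 differed between times. GLDP1 held 89.0%, 81.7%, 89.1% and 64.1% of the tags of both in slh1 at 0, 6, 9 and 24 h, against 86.3%, 83.4%, 93.0% and 61.1% in No-0. At 24 h this rests on 25 and 14 tags of GLDP1 and GLDP2 in slh1, against 96 and 61 tags in No-0. GGT1 held 90.0% of the tags of GGT1 and GGT2 at 0 h in slh1 and 90.5% in No-0, and at 24 h 99.2% (95.7% to 99.98%) in slh1 and 98.9% (97.4% to 99.6%) in No-0. The 24 h shares rest on 127 and 1 tags of GGT1 and GGT2 in slh1, against 449 and 5 tags in No-0.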
